A study of Mus musculus with 2 samples.

Results

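The multiciliated cells of the Sox1-GFP+ tail and brain libraries were examined, that is, cells with transcripts of genes that build motile cilia. They were chosen by the transcripts themselves: a cell was included when at least 3 of 8 rule genes (Tmem212, Dynlrb2, Deup1, Ccno, Lrrc23, Meig1, Ak7 and Ccdc153) had at least 1 molecule. This rule selected 123 of 1964 filtered tail cells (6.26%, exact Clopper-Pearson 95% interval 5.23 to 7.43) and 60 of 7988 filtered brain cells (0.751%, 0.574 to 0.966), together 183 of 9952 cells, called members in the plots. RNA molecules had been counted in single GFP+ cells that were sorted from a Sox1-GFP knock-in mouse line, in which GFP reports the activity of Sox1, a transcription factor gene of neuroepithelial and neural stem cells. There were 2 groups with 1 library each, Sox1-GFP+ tail cells from postnatal mice and Sox1-GFP+ brain cells from adult mice, and cells of both carried the reporter allele. The number of mice behind each library and whether they were pooled is not given in the sources used here, and tissue, age and library cannot be told apart. With 1 library per group no test was possible, so all values below describe these cells, and all intervals (95%) cover counting error only. Spread between cells makes intervals on summed molecules too narrow.

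Multiciliated cells line the ventricles of the brain and the central canal of the spinal cord (as ependymal cells), the airways and the oviduct, and move fluid with many beating cilia. To make them, a cell that has left the division cycle switches on a cascade in which Gmnc and Mcidas act with E2f factors, followed by Myb, Trp73, Foxj1 and Rfx factors. It then amplifies its centrioles, partly on deuterosomes, docks them as basal bodies and grows an axoneme with dynein arms, radial spokes and a central pair. Of the rule genes, Deup1 encodes the scaffold of the deuterosome and Ccno a cyclin required for centriole amplification, and both act while the cell matures. Dynlrb2 encodes a dynein light chain, Lrrc23 a radial spoke protein and Ak7 an adenylate kinase of motile cilia. Meig1 is known from sperm flagellum assembly, and Ccdc153 and Tmem212 are markers of mature ciliated cells.

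Promoters of 4 rule genes are shown, chosen by their motifs: the 3 with an X-box, and for Deup1, which with Ccno divides the tail cells below, the promoter of its 2 that holds GTTGCC. The promoters of Meig1, Tmem212, Ak7 and Ccdc153 and the other of Deup1 are not shown. Those printed come from RefSeq on GRCm38.p6, cover the 250 bases before the annotated start and are written 5′ to 3′ on the gene's strand. Capitals mark a match to the X-box, the palindromic motif of RFX factors, in Dynlrb2, Lrrc23 and Ccno, and the hexamer GTTGCC, here on the opposite strand, in Deup1.
Dynlrb2: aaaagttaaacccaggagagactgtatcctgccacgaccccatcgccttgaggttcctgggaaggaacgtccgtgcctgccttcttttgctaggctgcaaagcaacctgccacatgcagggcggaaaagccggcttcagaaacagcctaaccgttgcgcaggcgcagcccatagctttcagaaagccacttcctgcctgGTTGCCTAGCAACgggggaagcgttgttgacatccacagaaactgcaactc
Lrrc23: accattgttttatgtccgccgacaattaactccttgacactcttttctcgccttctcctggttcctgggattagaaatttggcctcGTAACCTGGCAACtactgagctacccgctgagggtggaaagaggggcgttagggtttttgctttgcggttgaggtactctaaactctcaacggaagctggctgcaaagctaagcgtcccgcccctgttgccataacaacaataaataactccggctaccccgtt
Ccno: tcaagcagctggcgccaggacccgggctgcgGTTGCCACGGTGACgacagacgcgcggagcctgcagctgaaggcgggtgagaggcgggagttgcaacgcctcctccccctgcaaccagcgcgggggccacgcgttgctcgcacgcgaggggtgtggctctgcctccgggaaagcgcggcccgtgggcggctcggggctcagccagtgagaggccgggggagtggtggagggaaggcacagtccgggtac
Deup1: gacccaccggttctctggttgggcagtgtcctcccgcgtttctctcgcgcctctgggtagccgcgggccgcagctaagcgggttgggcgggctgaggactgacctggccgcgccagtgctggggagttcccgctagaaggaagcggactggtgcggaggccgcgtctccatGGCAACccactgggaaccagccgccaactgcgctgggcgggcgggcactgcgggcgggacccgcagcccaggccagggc
These stretches lie at chr8:116504765-116505014 (plus strand), chr6:124779728-124779977 (minus), chr13:112987552-112987801 (plus) and chr9:15627847-15628096 (minus). The capitals lie 51 to 39, 164 to 152, 219 to 206 and 79 to 74 bases before the RefSeq start. GENCODE vM21 places the starts of Dynlrb2 and Deup1 further upstream, at chr8:116504974 and chr9:15627933. By those starts the X-box of Dynlrb2 spans the start and the GTTGCC of Deup1 lies inside the gene. Over the 250 bases before the start and on both strands, an X-box was found in 3 of the 11 promoters listed for the 8 rule genes (27.3%). It was found in 1.29% of all 32851 promoters. GTTGCC, which an X-box can contain, was found in 5 of the 11 (45.5%), against 10.4% of all, and the forkhead sequence TGTTTAC in 1 (9.09%, in Ak7), against 3.17% of all. Promoters of the genes for radial spoke, central pair and doublet proteins held an X-box in 8 of 67 cases (11.9%), and those of genes for dynein arms in 4 of 23 (17.4%). None of the 18 promoters listed for multiciliation regulators and none of the 16 for centriole amplification genes held an X-box. A match describes the letters of the window and shows no binding.

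Ccno (ENSMUSG00000042417.5, chr13:112987802-112990777) and the regulator Mcidas (ENSMUSG00000074651.3, chr13:112993845-113000394) lie side by side on the plus strand in GENCODE vM21 on GRCm38. Deup1 (ENSMUSG00000039977.16, chr9:15559864-15627933) and Foxj1 (ENSMUSG00000034227.7, chr11:116330704-116335399) lie on the minus strand.

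Tail multiciliated cells held a median of 1788 molecules (530 to 7090) and 1158 genes, against 1259 molecules in the other tail cells. Brain multiciliated cells held a median of 1367 molecules (395 to 3091), against 694 in the other brain cells, so the chance to detect 3 rule genes differed between groups. Mitochondrial transcripts made up a median of 11.9%, 12.7%, 17.3% and 14.1% of molecules in these 4 sets of cells. Scrublet called none of the multiciliated cells a doublet, but it marked only 7 tail cells (0.356%), too few to be relied on. The files shared 29 barcode numbers, 18 of them among filtered cells, and leaving those cells out moved none of the main shares, counts, list ratios or named genes of the comparisons beyond the counting interval. No tail multiciliated cell had 3 or more markers of fibroblasts, keratinocytes, macrophages, neurons or astroglia. In the brain, 14 of the 60 had at least 3 of 8 astroglial markers and 1 had at least 3 neuronal ones.

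Between the chosen cells and the rest there was a gap in the brain and a slope in the tail. In the brain, 7896 cells had no rule gene, 24 had 1, 8 had 2, 12 had 3 and 48 had 4 or more. In the tail these numbers were 1552, 227, 62, 34 and 89. The 289 tail cells with 1 or 2 rule genes made up 15.7% of the other tail cells (14.1 to 17.4), against 0.404% of the other brain cells. Of 177 tail cells with at least 3 fibroblast markers and a median of 1990 molecules, 1 held any rule gene (0.565%, 0.0143 to 3.11), and of 85 with at least 3 keratinocyte markers none did.

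The axoneme genes outside the rule followed the number of rule genes. In the tail their summed level was 2692 CPM (molecules per 1000000 molecules of the same cells) in cells with no rule gene, 7750 with 1, 11238 with 2, 16694 with 3 and 18688 with 4. In the brain it was 677 CPM with none, 2431 with 1, 20259 with 2, 20505 with 3 and 23493 with 4. Brain cells just outside the rule thus stood beside those just inside it, while in the tail the level was higher at each step up to 4 rule genes. Foxj1, the transcription factor that switches on motile cilia genes, had 110 CPM in tail cells with no rule gene, 391 with 1, 905 with 2 and 1011 with 3. In the tail, 62 cells lay just outside the threshold and 34 just inside it. The number of rule genes also depends on depth. Median molecules in the tail were 1264.5 with no rule gene, 1208.5 with 2, 1410.5 with 3 and 1714 with 4. Whether the tail cells form a range or a mixture was not tested.

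**Figure D1:**
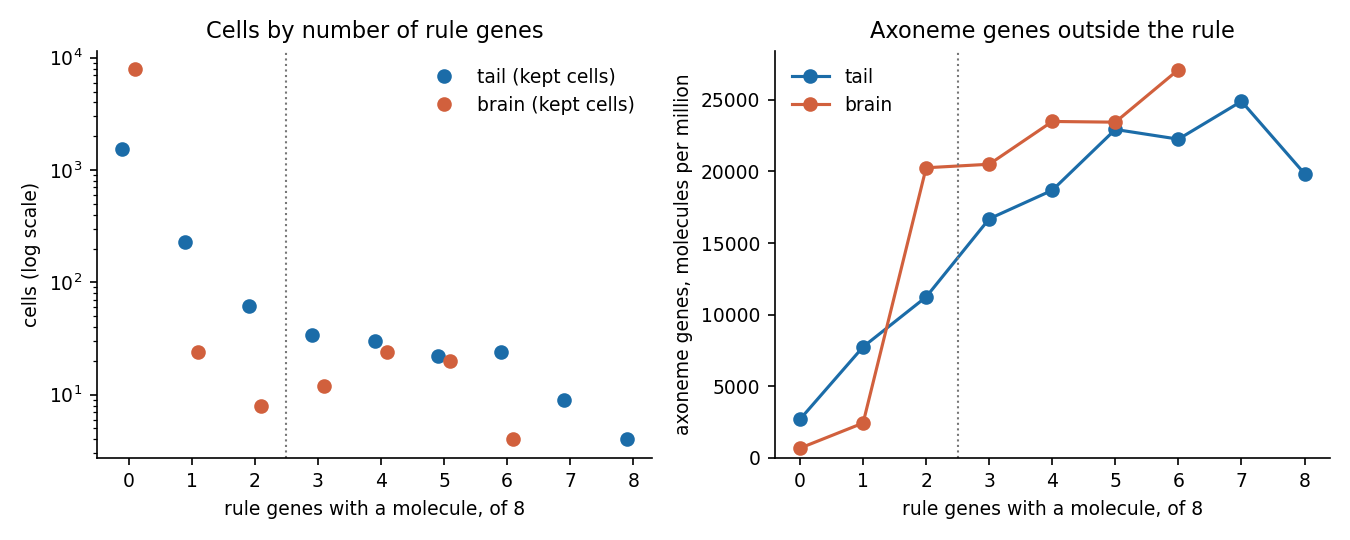
Left, number of filtered cells (log scale) against the number of rule genes with a molecule, for tail (blue) and brain (orange). Right, summed level of axoneme genes outside the rule in CPM; the dotted line marks the threshold of 3 rule genes, which tail cells cross in steps (11238 to 16694) and brain cells on a plateau (20259 to 20505).

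Levels of the early regulators were also read along the number of rule genes. Gmnc, at the top of the cascade, had 2 molecules in the tail multiciliated cells and 47 in the other tail cells, 8.59 and 18.2 CPM, a ratio of 0.472 (0.0556 to 1.8) that held 1. Its level was 13.6 CPM in tail cells with no rule gene, 37.7 with 1, 74.4 with 2, 9.97 with 3 or 4 and 7.55 with 5 or more. The next regulator, Mcidas, had 0.452, 17.1, 124, 169 and 204 CPM in the same classes. Myb, a regulator of the amplification stage, had 16.7, 44.6, 136, 319 and 544 CPM, and Foxn4, a forkhead gene of ciliated progenitors, 0.452, 0, 24.8, 49.8 and 136 CPM. The value of Gmnc with 2 rule genes rests on 6 molecules in 4 cells, while Mcidas, Myb and Foxn4 were highest in cells with 5 or more. The classes count Deup1 and Ccno, and Mcidas had 44 molecules in tail multiciliated cells with either gene and 0 in those without. Depth differed too, with medians of 1410.5 molecules at 3 and 2894.5 at 8 rule genes. No order of the regulators is therefore read from these classes. The 7988 filtered brain cells held 1 molecule of Gmnc and none of Mcidas and Foxn4.

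The 8 rule genes were detected in different proportions in tail and brain. Dynlrb2 was found in 113 of 123 tail multiciliated cells (91.9%) and in 52 of 60 from the brain (86.7%). Lrrc23 was found in 64.2% and 43.3%, Meig1 in 61.8% and 43.3% and Ak7 in 59.3% and 75.0%. These shares were used by the rule and depend on depth.

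The same description holds for the 2 genes of centriole amplification, which were also among those the rule used. Deup1 was found in 79 of 123 tail cells (64.2%, 55.1 to 72.7) and in 3 of 60 brain cells (5.0%, 1.04 to 13.9). Ccno was found in 69 of 123 tail cells (56.1%, 46.9 to 65.0) and in 0 of 60 brain cells (0 to 5.96). At least 1 of both was found in 89 of 123 (72.4%, 63.6 to 80.0) against 3 of 60 (5.0%, 1.04 to 13.9). After thinning each cell to 400 molecules the shares were 42.3% (33.4 to 51.5) and 1.69% (0.0429 to 9.09), and after thinning to 800 molecules 56.4% and 1.85%. Among the other tail cells, Deup1 and Ccno were each found in 1.03%.

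Tmem212 and Ccdc153, markers of mature ciliated cells, showed the opposite order. Both are rule genes, and many tail cells met the rule only with Deup1 or Ccno, so their shares in the tail depend on how the cells were chosen. Tmem212 was found in 47 of 123 tail cells (38.2%, 29.6 to 47.4) and in 58 of 60 brain cells (96.7%, 88.5 to 99.6). Ccdc153 was found in 35 tail cells (28.5%) and 46 brain cells (76.7%). Within the tail, 59 of the 69 cells with Ccno also held Deup1 (85.5%), and 27 of the 35 with Ccdc153 also held Tmem212 (77.1%). Of the 47 tail cells with Tmem212, 19 held Deup1 (40.4%). The rule itself shapes which of these genes occur together, so nothing is read from these shares.

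**Figure D2:**
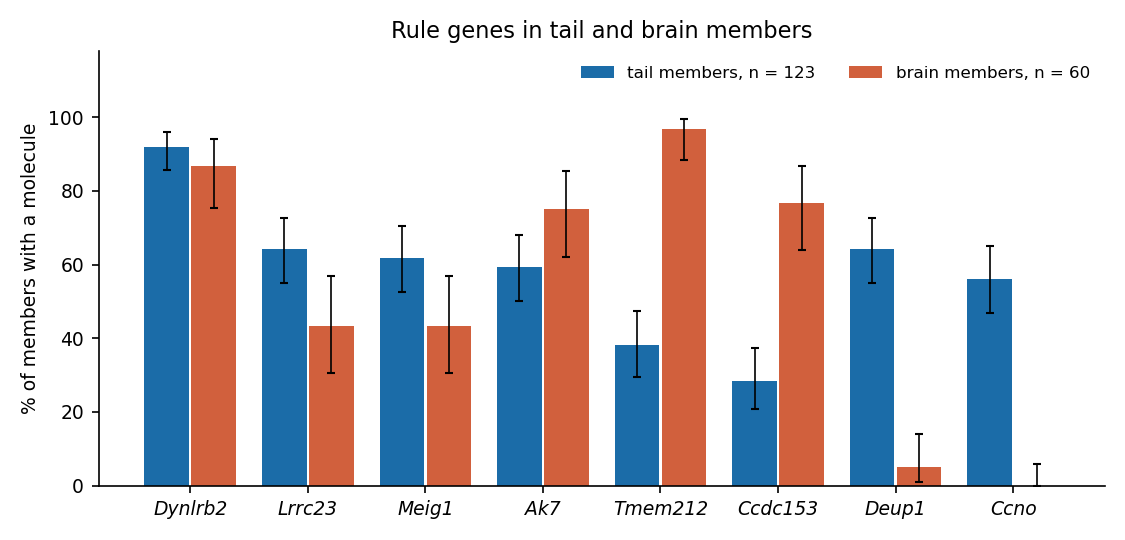
Share of multiciliated cells (%) with at least 1 molecule of each rule gene in tail (blue, n = 123 cells) and brain (orange, n = 60 cells), with exact 95% Clopper-Pearson intervals as error bars. Deup1 and Ccno are at 64.2% and 56.1% in the tail and at 5.0% and 0% in the brain, and Tmem212 is at 38.2% and 96.7%.

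The first comparison set the tail multiciliated cells against the 1841 other tail cells. Of 11070 genes with at least 20 molecules, 612 were at least 2-fold higher with the whole interval beyond 2-fold (5.53% of genes) and 343 were lower in the same sense (3.1%), and the median ratio of all genes was 0.952. The summed levels of the regulators, of centriole amplification genes and of each axoneme list were higher, though not each gene of them. As the rule chose the cells on 8 such genes, these values describe the cells. Ratios in this comparison are the level in multiciliated cells over that in other tail cells, followed by the interval.

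Of the multiciliation regulators, 7 of 15 were higher, with a median ratio of 2.9 and a summed level of 3398 against 756 CPM, a ratio of 4.49 (4.13 to 4.88). Foxj1 had 330 molecules in the multiciliated cells and 430 in the other tail cells, 1418 and 166 CPM, a ratio of 8.52 (7.36 to 9.86). Foxj1 was found in 105 of 123 cells (85.4%, 77.9 to 91.1) and in 16.8% of the other tail cells, or in 43.1% and 7.74% after thinning, against 0.565% of fibroblast-like cells before thinning. Mcidas, the partner of E2f4 and E2f5, had 44 and 16 molecules, a ratio of 30.5 (16.9 to 58.0). Myb had a ratio of 18.9 (13.7 to 26.4) and Trp73 of 11.6 (6.18 to 21.8). Rfx2 was higher by less, 2.9 (2.13 to 3.9), and the interval of Rfx3 held 1, 1.56 (0.897 to 2.57).

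Of the centriole amplification genes, 13 of 17 were higher (median ratio 5.55), and their summed level was 2410 against 438 CPM, 5.5 (4.96 to 6.09). Plk4, the kinase that starts centriole formation, had a ratio of 10.2 (7.03 to 14.8). Its partner Stil had 13.9 (8.97 to 21.8) and Cep152, the receptor of Plk4 on the centriole, 8.58 (4.28 to 16.9). Sass6, of the centriolar cartwheel, was 4.02 (2.16 to 7.12). Basal body and appendage genes were higher for 10 of 16 (summed ratio 4.19 (3.84 to 4.57)), among them Cep164 of the distal appendages, 4.93 (3.31 to 7.24), which was at 0 when every cell was thinned to 400 molecules before the rule, a setting that left 1.44% of tail cells.

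Among axoneme genes, 54 of 63 for radial spoke, central pair and doublet proteins were higher (median ratio 6.34), with 15736 against 2462 CPM in sum, 6.39 (6.14 to 6.66), or 3.93 (3.77 to 4.1) when cells with markers of other kinds were left out. Rsph1, of the radial spoke head, was 14.4 (11.2 to 18.6) and Spag17, of the central pair, 48.4 (26.7 to 93.7). Of 24 genes for dynein arms and their assembly, 18 were higher, 4.5 (4.19 to 4.83) in sum, with Dnah5, the heavy chain of the outer arm, at 21.3 (10.5 to 45.4). Of 33 intraflagellar transport genes, 17 were higher, 3.25 (3.05 to 3.45) in sum. No gene of these structural lists was lower.

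The 10 genes with the largest ratios, ranked by the interval bound nearer to 1, were Hba-a2, Deup1, Ccdc153, Crocc2, Ccno, Ccdc192, Meig1, Spag17, 1700012B09Rik and Foxn4. All 69 molecules of the haemoglobin gene Hba-a2 came from 1 cell. Outside the rule and the lists, Crocc2, a relative of the ciliary rootlet gene Crocc, had 37 molecules in 31 cells against 3 in the other tail cells, 137 (43.4 to 694). Genes of other tail cell types led the opposite side, with Col1a1 at 0 against 12686 molecules (at least 381-fold lower) and Krt5 at 0 against 1414 (at least 42.5-fold lower). The other 8 were Col3a1, Col1a2, Col6a2, Meg3, Dcn, Dlk1, Gap43 and Krt14.

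The axoneme genes were spread over all of the chosen cells rather than carried by a few. Of these genes outside the rule, a tail multiciliated cell held between 3 and 54, with a median of 24, and a brain multiciliated cell between 6 and 42, also with a median of 24. The other tail cells held between 0 and 29 (median 3), and 303 of 1841 held none. After thinning to 400 molecules the medians were 7 in tail and 9 in brain multiciliated cells.

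The label also calls the cells ependymal, and the tail cells stood close to the other tail cells in the sum of such genes, though not gene by gene. The list of ependymal and ventricular zone genes had 12540 CPM in tail multiciliated cells and 13194 in other tail cells, 0.95 (0.915 to 0.987). Of its 24 tested genes, 4 were higher and 3 lower (median ratio 0.932), against 5.53% and 3.1% of all genes. This ratio was 1.01 against tail cells with no rule gene and 1.0 as a mean over cells. Tm4sf1, a tetraspanin-like membrane protein gene, was 5.76 (4.94 to 6.7), Pltp, a phospholipid transfer protein gene, 3.26 (2.75 to 3.84), and Cd24a, a surface marker of ependymal cells, 2.96 (2.65 to 3.3). Other genes of the list were at or near 0, with Rarres2 at 0 molecules, Clu at 2, Aqp4 at 2 and S100b at 4 in all 123 cells. In the brain the same list was 50549 CPM in multiciliated and 18640 in other cells, 2.71 (2.63 to 2.8). The other cells of each library are specific to its tissue, so these ratios are not set against each other. Genes of this list went both ways in the tail cells, so these are called multiciliated here. Whether they are ependymal was not tested.

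Genes of the main Sox1-GFP+ tail population were lower in the multiciliated cells, 6 of 14, with 11646 against 28384 CPM in sum, 0.41 (0.395 to 0.426). Igfbp5, an insulin-like growth factor binding protein gene, was 3256 against 11211 CPM, 0.29 (0.27 to 0.312), and the imprinted RNA H19 0.434 (0.41 to 0.458). That list was drawn from leading genes of these same cells, so it is no independent evidence. Neural stem cell and radial glia genes were at 0.501 (0.451 to 0.556) in sum, with 2 of 16 lower and 0 higher, and floor and roof plate genes at 0.659 (0.578 to 0.75). Caudal Hox genes, which mark the posterior body, were at 0.571 (0.485 to 0.667) with 166 molecules. Sox1 itself, the reporter's gene, did not stand apart: 19 molecules in the multiciliated and 217 in the other cells, 0.972 (0.574 to 1.56).

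Markers of fibroblasts, keratinocytes, macrophages and airway or oviduct cells were near 0 in the tail multiciliated cells. The 6 fibroblast markers had 9 molecules in all 123 cells, the 6 keratinocyte markers 1, the 6 macrophage markers 0 and the airway and oviduct markers 2. Neuron markers had 65 molecules in 46 of the 123 cells, 279 CPM against 1776 in other tail cells. Astroglial markers had 35 molecules in 27 cells, 150.4 against 252 CPM. None of these markers was higher in the multiciliated cells.

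The next comparison set tail multiciliated cells against brain multiciliated cells, chosen by the same rule. Deup1 or Ccno, which are rule genes, was found in 72.4% of the tail and 5.0% of the brain cells. Only 90 of the 123 tail cells held 3 of the other 6 rule genes. Tail levels of genes found together with Deup1 and Ccno thus describe in part how the cells were chosen. Of 3412 genes with at least 20 molecules, 156 were higher in the tail (4.57%) and 143 lower (4.19%), and the median ratio of tail over brain was 1.32. The dynein arm and transport genes were not called, the centriole amplification and mitosis genes were higher in sum in the tail, and the ependymal genes in the brain.

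None of 21 dynein arm genes and none of 23 intraflagellar transport genes was called in either direction. Of all 3412 genes, 4.57% were called higher and 4.19% lower. No call among so few genes lies near these shares and does not show equal levels. The summed ratios were 1.13 (1.01 to 1.28) and 1.35 (1.2 to 1.52), both with intervals above 1. Of 60 radial spoke, central pair and doublet genes, 5 were lower in the tail and none higher (summed ratio 0.826 (0.779 to 0.876), median 0.889). The lower ones included Sntn, which encodes a ciliary tip protein and had 0 against 28 molecules (at least 25.3-fold lower). Rsph4a, of the radial spoke head, had 32 and 41 molecules, 0.288 (0.176 to 0.469). Foxj1 was 1418 CPM in the tail and 663 in the brain, 2.14 (1.61 to 2.88).

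Centriole amplification genes were higher in the tail in sum, with 561 molecules against 58, 2410 and 675 CPM, 3.57 (2.72 to 4.76). Plk4 had 58 tail and 0 brain molecules (at least 7.14-fold higher), and Stil 49 and 0 (at least 6.03-fold). Mcidas was at 44 and 0 (at least 5.41-fold) and Myb at 104 and 8, 4.8 (2.35 to 11.4). The regulators as a list were 2.18 (1.81 to 2.64).

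Mitosis genes were close to absent from the brain cells. The G2/M list had 576 molecules in tail and 2 in brain cells, 2474 and 23.3 CPM, a ratio of 106 (29.3 to 880.0). Top2a, which untangles DNA, had 94 against 0 molecules (at least 11.6-fold higher), and Cdk1, the mitotic kinase, 75 against 0 (at least 9.23-fold). Ckap2l, a spindle protein gene, had 136 in 70 cells against 0 (at least 16.7-fold), and Cks2, outside the list, which binds cyclin-dependent kinases, 145 in 72 cells against 1, 53.5 (9.46 to 2129). A tail cell held between 0 and 13 G2/M genes (median 3), and 29 of 123 held none, while 58 of 60 brain cells held none. Brain cells held less RNA; after thinning to 400 molecules, 53 of 123 tail cells and 59 of 59 brain cells held none.

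Ependymal and ventricular zone genes were lower in the tail for 15 of 24 and higher for none, with 12540 against 50549 CPM, 0.248 (0.237 to 0.26), and a median ratio of 0.217 against 1.32 over all genes. Rarres2, the chemerin gene, had no tail molecules and 140 in 50 brain cells (at least 126-fold lower). Clu, the clusterin gene, had 2 and 200, 0.00369 (0.000444 to 0.0135), and the water channel gene Aqp4 2 and 81, 0.00912 (0.00109 to 0.034). Abundant members were lower by less. Dbi, encoding an acyl-CoA binding protein, was 1740 against 12253 CPM, 0.142 (0.126 to 0.159), and Nnat, the neuronatin gene, 1581 against 9984, 0.158 (0.14 to 0.179). Cd24a did not pass the call, 1.17 (0.958 to 1.44). In single cells, tail members of the group held 2 to 16 of these genes (median 9) and brain ones 7 to 21 (median 17).

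Astroglial genes were lower in the tail in sum, 35 molecules against 267, 0.0484 (0.033 to 0.069). The inward rectifier gene Kcnj10 was at 0 against 55 molecules (at least 49.7-fold lower) and the intermediate filament gene Synm at 0 against 59 (at least 53.3-fold lower). Other leading genes of the brain side were Gpr37l1, Mro, Pla2g7, Atp1b2 and Sntn. The astroglial list was highest in the other brain cells, so brain multiciliated cells stood at 0.148 (0.131 to 0.167) of those.

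Of 11 genes of the main tail population, 4 were higher in the tail and 1 lower, with a summed ratio of 4.57 (3.98 to 5.27). H19 had 1305 molecules in 76 tail cells and none in brain cells (at least 161-fold higher), and Igfbp5 758 and 33, 8.48 (5.99 to 12.4). Caudal Hox genes had 166 molecules against 0 (at least 20.4-fold higher as a list), Hoxb13 32 of them. Nkx6-1, a ventral neural tube gene, had 133 and 2, 24.6 (6.66 to 205), and Ntn1, a floor plate gene, 70 and 1, 25.8 (4.49 to 1035). Gpc3, a glypican gene, and Igf2bp2, an RNA-binding protein gene, were also among the 10 largest. So were Hba-a1 and Hbb-bs, with 99.2% and 100% of their molecules from 1 tail cell. Sox1 was 81.6 against 128 CPM, 0.638 (0.288 to 1.48). Stress genes induced by dissociation, Fos, Jun and Egr1 among them, were at 1.74 (1.57 to 1.93); their part in the other differences was not tested.

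**Figure D3:**
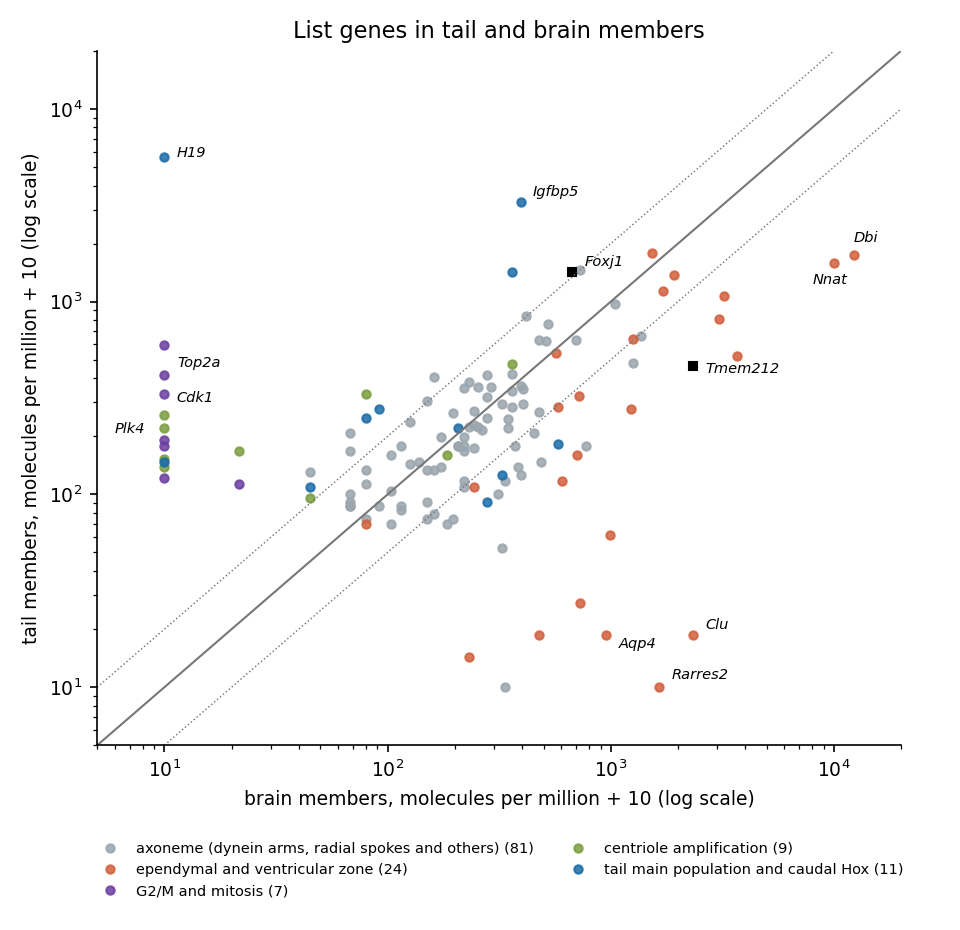
Level of tested list genes in brain (x axis) and tail (y axis) multiciliated cells, in CPM plus 10 on log scales; the solid line marks equal levels, the dotted lines 2-fold differences, and squares mark Foxj1 and Tmem212. Axoneme genes (grey) lie around the line, ependymal genes (orange) mostly below it, and G2/M genes (purple) at the left edge with 0 to 2 brain molecules in sum.

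The comparison was repeated with the 34 tail and 57 brain multiciliated cells with neither Deup1 nor Ccno. This comparison was chosen after the values above had been seen. The ratio for radial spoke, central pair and doublet genes moved to 0.964 (0.892 to 1.04) and that for centriole amplification genes to 2.16 (1.51 to 3.11). Ependymal genes stayed lower in the tail, 0.364 (0.34 to 0.389), as did astroglial genes, 0.0866 (0.0497 to 0.141). Genes of the main tail population stayed higher, 5.22 (4.47 to 6.11), and floor and roof plate genes were 3.71 (2.61 to 5.35). G2/M genes had 24 molecules against 2, 15.7 (3.89 to 137).

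Within the tail, the 89 multiciliated cells with Deup1 or Ccno were set against the 34 without. The medians were 1851 and 1617.5 molecules and 11.0% and 13.5% mitochondrial transcripts. Of 2516 genes with at least 20 molecules, 45 were higher with Deup1 or Ccno (1.79%) and 24 lower (0.954%), and the median ratio of cells with over cells without was 1.08. The cells without had to hold 3 of the other 6 rule genes, which the cells with did not, so the sides were chosen unequally.

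Regulators and centriole genes were on the side of Deup1 and Ccno. Mcidas had 44 molecules in 31 of 89 cells and 0 in the other 34 (at least 5.28-fold higher), Foxn4 23 and 0 (at least 2.76-fold), and Myb 98 and 6, 5.88 (2.61 to 16.4). Foxj1 was 1560 against 1022 CPM, 1.53 (1.16 to 2.04), and did not pass the call. Plk4 had 58 molecules in 36 cells and 0 (at least 6.96-fold higher), and Nek2, a centrosomal kinase gene, 37 and 0 (at least 4.44-fold). The centriole list was 2776 against 1395 CPM, 1.99 (1.58 to 2.53), and the regulators in sum were 1.5 (1.26 to 1.8). When every cell was thinned to 400 molecules before the rule was applied, the centriole list was at 1.22 (0.481 to 3.68). The regulators were then at 0.926 (0.418 to 2.25), and both intervals held 1. By molecules of Deup1 and Ccno per cell, the centriole list was 1395 CPM with none, 1592 with 1, 2689 with 2 or 3 and 3191 with 4 or more.

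For axoneme genes no call was made, as for nearly all genes of this comparison. None of 52 radial spoke, central pair and doublet genes, 14 dynein arm genes and 20 intraflagellar transport genes was called, and the summed ratios were 0.816 (0.76 to 0.876), 0.931 (0.816 to 1.06) and 1.18 (1.04 to 1.35). Intraflagellar transport was at 0.921 when both sides were thinned to 400 molecules. A cell with Deup1 or Ccno held a median of 23 axoneme genes and a cell without 26.5. Scaled by TMM factors, which here move every ratio by 0.21 on the log2 scale, the radial spoke ratio was 0.945. Tmem212 had 41 molecules in 21 cells and 64 in 26, 0.231 (0.152 to 0.347), but helped to choose the cells. Vwa3a, a von Willebrand domain protein gene outside the rule, had 18 and 40, 0.162 (0.0875 to 0.289).

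Ependymal and floor plate genes were on the side without Deup1 and Ccno. The ependymal list was 10477 against 18265 CPM, 0.574 (0.532 to 0.619), with 1 of 16 genes called, Nnat at 0.248 (0.20 to 0.307). Floor and roof plate genes were 0.352 (0.272 to 0.455), with Ntn1 at 26 and 44 molecules, 0.213 (0.126 to 0.353). Genes of the main tail population were at 0.825 (0.76 to 0.896) in sum, but at 1.25 with at least 4 rule genes, and they did not go together. Igfbp5 was found in 53 of 89 and 30 of 34 cells, 1870 against 7105 CPM, 0.263 (0.227 to 0.305), whereas H19 went the opposite way, found in 64 of 89 and 12 of 34 cells, 2.44 (2.07 to 2.88), or 0.905 after thinning before the rule. Other leading genes of this side were Col6a5, 3300002A11Rik, Nap1l5, Zbtb20, Rgs9 and Slc25a18, and Smim24 and Pidd1 led the opposite side with Cks2. The haemoglobin genes Hba-a1, Hba-a2 and Hbb-bs also led it, with at least 99.2% of their molecules from 1 cell. Dissociation genes were at 1.35 (1.22 to 1.5), or 0.915 with at least 2 rule genes, and their part was not tested.

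**Figure D4:**
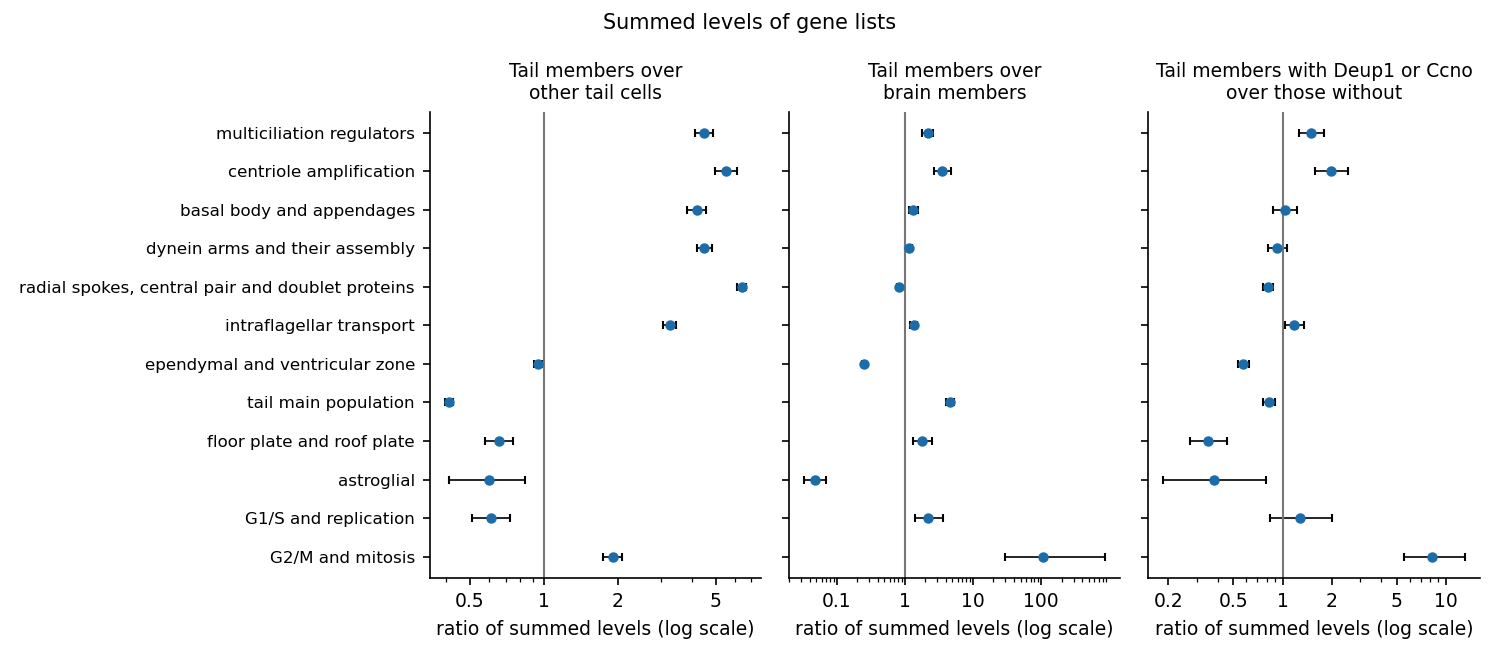
Ratio of summed levels of gene lists (log scale) in 3 comparisons, with 95% intervals for counting error; the vertical line marks equal levels. The axoneme lists (dynein arms to intraflagellar transport) lie right of the line in the left panel and near it in the others, and the G2/M list is at 1.91, 106 and 8.29 from left to right.

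The widest difference of the plotted lists within the tail was in mitosis genes. Against the other tail cells the G2/M list was at 1.91 (1.75 to 2.09), with 5 of 26 genes higher and 1 lower, and the list for G1/S and replication at 0.61 (0.508 to 0.727). Within the tail multiciliated cells, G2/M genes had 552 molecules in the cells with Deup1 or Ccno and 24 in those without, 3226 against 389 CPM, 8.29 (5.51 to 13.0). With every cell thinned to 400 molecules before the rule the ratio was 1.89 (0.784 to 5.5), an interval that holds 1. It was 15 (5.02 to 73.9) with both sides thinned after the rule and 14.1 (7.83 to 28.5) without the highest cell of each gene. G1/S and replication genes were at 1.28 (0.84 to 2.0). At least 5 G2/M genes were found in 37 of the 89 cells and in 0 of the 34, against 126 of the 1841 other tail cells (6.84%). Split on Deup1 alone the G2/M ratio was 3.85, and on Ccno alone 2.87.

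The division genes of these 37 multiciliated cells (median 2084 molecules) were then compared with those of the 126 other tail cells that met the same condition (median 2148.5 molecules), whatever their other transcripts. Both sets were chosen on G2/M genes, and the comparison was chosen after the values above had been seen. The sets differed in the G2/M list as a whole, at 4438 and 9327 CPM, 0.476 (0.426 to 0.53), with medians of 6 and 11 such genes per cell. For some genes the interval of the ratio held 1: Cdk1 was at 651 and 543 CPM, 1.2 (0.867 to 1.64), Cks2 at 0.825 (0.64 to 1.05), and Cdc20, an activator of the anaphase-promoting complex, at 1.47 (0.912 to 2.32). Ckap2l was higher, 2.71 (1.98 to 3.69), as was Aurka on 10 and 14 molecules, 2.55 (1.01 to 6.18). The genes named here and below come mostly from the ends of the list. Others lay between, such as Ccnb1 at 0.682 (0.406 to 1.1) and Cenpf at 0.53 (0.327 to 0.825).

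Other genes of division were nearly missing from the multiciliated set. Mki67, the proliferation marker Ki67, had 2 molecules against 206, 23.7 and 682 CPM, 0.0347 (0.00417 to 0.127). Ccna2, the cyclin A of dividing cells, had 2 against 211, 0.0339 (0.00408 to 0.124), and Birc5, the survivin gene, 3 against 207, 0.0518 (0.0106 to 0.154). Aurkb, the kinase of the chromosomal passenger complex, had 0 against 51. Replication genes were 651 against 2437 CPM, 0.267 (0.199 to 0.352). Genes of the centriole stage stood on the other side. Ccna1, the cyclin A of meiosis and of some ciliated cells, had 21 against 4 molecules, 18.8 (6.33 to 75.2). Plk4 was at 4.15 (2.5 to 6.94), Stil at 7.42 (3.7 to 15.7) and Myb at 67.9 (22.1 to 339). Top2a was at 0.678 (0.504 to 0.898). Transcripts of Cdk1, Cks2 and Top2a in these cells thus stood beside few or none of Mki67, Ccna2, Birc5 and Aurkb.

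**Figure D5:**
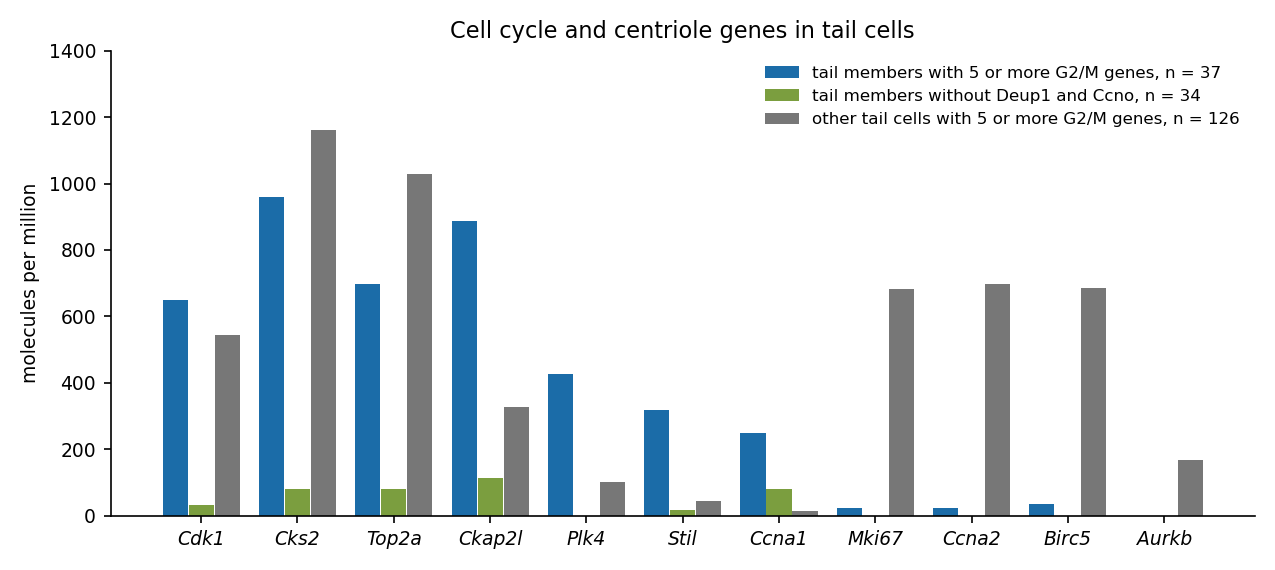
Level in CPM of 11 cell cycle and centriole genes in tail multiciliated cells with at least 5 G2/M genes (blue, n = 37), in those without Deup1 and Ccno (green, n = 34) and in other tail cells with at least 5 G2/M genes (grey, n = 126); there are no error bars because each set comes from 1 library. Cdk1 is at 651 and 543 in the blue and grey sets, and Mki67 at 23.7 and 682.

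Brain multiciliated cells were also set against the 7928 other brain cells. There, radial spoke, central pair and doublet genes were 19049 and 301 CPM, 63.3 (59.2 to 67.7), and dynein arm genes 10.5 (9.41 to 11.8). Centriole amplification genes were 2.47 (1.87 to 3.2), and regulators 6.12 (5.09 to 7.3). G2/M genes were 23.3 against 935 CPM, 0.0249 (0.00301 to 0.090). Each other set is specific to its tissue, so ratios against it cannot be set side by side as a difference between multiciliated cells.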

How the data were processed

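Single GFP+ cells had been sorted from tail and brain, and their RNA captured with the BD Rhapsody whole transcriptome assay, with 1 library per tissue. The deposited counts came from version 1.10.1 of the BD Rhapsody WTA Analysis Pipeline, run by the authors on GRCm38 and GENCODE vM19 per the file headers. They give, for each cell and gene, molecules after error correction of the molecular identifiers, without normalization. The submitters' processing notes also name UMI-tools 1.0.1, STAR 2.7.1a and Subread featureCounts 1.6.4, with no role or order. The 2469 tail and 12111 brain barcodes held 2972637 and 7462281 molecules.

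Cells with over 200 and under 4000 genes and under 40% mitochondrial molecules were kept, which left 1964 and 7988 cells with 2817103 and 6424466 molecules. Scrublet (scanpy 1.11.5, expected rate 0.05) marked 7 and 67 doublets, which were kept. Members, gene lists and comparisons were chosen with earlier results of these data known. Molecules were summed over the cells of a side and given as CPM (per 1000000 molecules of that side). Ratios carry conditional exact binomial and shares exact Clopper-Pearson 95% intervals (scipy 1.17.1), which cover counting error only. Genes with at least 20 molecules over both sides were counted as higher or lower when the whole interval lay beyond 2-fold. Where a side had 0 molecules, the bound was taken against 3 counts over that side. The procedure was tested on molecules drawn at random from a pooled profile of both sides, with known changes set in. Such draws hold no spread between cells, so the test cannot show how the procedure behaves under it. Thinning drew 400 or 800 molecules per cell (seed 1) and left out shallower cells. At 400 this removed 1 brain member, 19 other tail cells and 717 other brain cells. TMM factors (edgeR 4.0.16, R 4.3.3) shifted the log2 ratios by -0.11 (tail against other tail cells), 0.03 (tail against brain) and 0.21 (with against without Deup1 or Ccno).

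Named genes were the list members with the most molecules or past the 2-fold call, the 10 largest in each direction by the interval bound nearer to 1, and Sox1. The genes of the comparison of cells with at least 5 G2/M genes, and Crocc2, were singled out after their values had been seen. Listed symbols not matched to the files (among them Dnai1, Dnai2, Dnaaf4 and Scgb1a1) were not counted. The genes of Dnai1 and Dnai2 were counted under their other symbols, Dnaic1 and Dnaic2. Python 3.11.15, numpy 2.4.6, pandas 2.3.3 and matplotlib 3.10.9 were used. Alternatives were molecules before error correction, a limit of 20% mitochondrial molecules, other rule thresholds and sides, depth, scaling and minimum counts.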

Additional observations from a re-analysis of the deposited data

Results flagged for a closer look

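For 5 gene lists the ratio of multiciliated cells to the other cells of their library lay on opposite sides of 1 in tail and brain. With 1 library per tissue these differences were not tested, and the other cells differ between the libraries. The ependymal and ventricular zone list was 0.950 (95% counting interval 0.915 to 0.987) in the tail and 2.71 (2.63 to 2.80) in the brain. The G2/M list was 1.91 (1.75 to 2.09) in the tail and 0.0249 (0.00301 to 0.0900) in the brain, where it rested on 2 molecules in the multiciliated cells. The forebrain list was 1.89 (1.06 to 3.18) and 0.274 (0.182 to 0.396), and all 17 tail molecules were of Lhx2. Airway and oviduct markers were 0.0738 (0.00889 to 0.269) and 6.96 (2.17 to 17.3), from 2 and 5 molecules. Keratinocyte markers were 0.00325 (8.22e-05 to 0.0181) and 8.02 (2.49 to 20.1), from 1 and 5 molecules.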

How the results depend on the processing

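No paired analysis was possible because each group is 1 library without replicates, and for the same reason no library could be left out. Of the main shares, counts and list ratios, 168 values under the alternatives stayed within the counting interval (or, for counts, within 1.5 times) and 56 moved. Of the other list ratios and named genes, 3487 stayed, 451 moved and 20 turned direction, and the cause of these changes was not tested. Raw molecules, leaving out called doublets and leaving out shared barcodes moved none of these values. Main values are 955, 299 and 69 called genes in the comparisons with other tail cells, with the brain and within the tail. With at least 2 rule genes, 9.42% of tail cells were multiciliated and 61.6% of them held Deup1 or Ccno. Against other tail cells the centriole, radial spoke and G2/M lists were then 4.7, 6.13 and 1.53, the ependymal list turned to 1.06 and the dissociation list to 1.13. The radial spoke list was 0.733 against the brain and 0.954 within the tail, where the dissociation list turned to 0.915. With at least 4 rule genes, 4.53% of tail cells remained, G2/M was 2.15 against other tail cells, and within the tail 33 genes were called, radial spoke genes were 0.749 and the main tail population turned to 1.25. Thinning every cell to 400 molecules before the rule was applied changed most, since it left 1.44% of tail and 0.261% of brain cells, with 0% of the latter holding Deup1 or Ccno. Against other tail cells 125 genes were then called, centriole, radial spoke and G2/M lists were 4.76, 5.19 and 3.67, and Arl6, Cep164, Cetn4, Drc7, Efcab1, Odf2 and Ppil6 turned to 0, Cetn2 to 0.658 and Iqcg to 0.938. Against the brain 10 genes were called, centriole and radial spoke lists were 6.33 and 0.953, and the rule genes turned to 1.06. Within the tail 0 genes were called, the centriole and G2/M lists were 1.22 and 1.89, and the regulators turned to 0.926, intraflagellar transport to 0.783 and H19 to 0.905. A rule without Dynlrb2 gave 4.68% of tail cells. Leaving out cells of other kinds gave 8.83% of tail cells and, against other tail cells, 620 called genes and centriole and radial spoke lists of 4.84 and 3.93. Thinning members to 400 and 800 molecules gave 42.3% and 56.4% of tail members with Deup1 or Ccno. TMM factors gave radial spoke ratios of 5.92 against other tail cells and 0.945 within the tail. The mean over cells gave radial spoke and G2/M ratios of 5.18 and 2.66 against other tail cells, turned the ependymal list to 1.0 and called 109 genes within the tail. A minimum of 50 molecules called 161 genes against the brain and 34 within the tail. Splitting on Deup1 alone called 42 genes with G2/M at 3.85, and on Ccno alone 26 with 2.87. Thinning both sides after the rule called 11 genes within the tail, with G2/M at 15 and intraflagellar transport turned to 0.921. A further 5 alternatives were chosen after seeing the data. With 3 of the 6 rule genes other than Deup1 and Ccno, 4.58% of tail cells were multiciliated, 62.2% of them held Deup1 or Ccno, the centriole list was 4.93 against other tail cells, and radial spoke genes were 0.878 against the brain and 0.878 within the tail. Without the highest cell of each gene, radial spoke genes were 6.68 against other tail cells and G2/M 14.1 within the tail. Without members holding Deup1 or Ccno, 90 genes were called against the brain, with centriole, radial spoke and G2/M lists of 2.16, 0.964 and 15.7. Against other tail cells with no rule gene the radial spoke list was 8.85 and the ependymal list turned to 1.01.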

Other observations

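Lists outside the comparisons above held few molecules in the multiciliated cells. In the tail cells, Notch pathway genes had 162 molecules, 0.651 of their level in the other tail cells, choroid plexus genes 28 molecules (0.755), oligodendrocyte genes 16 (1.03) and genes of neurons that contact the cerebrospinal fluid 11 (0.108). In the brain cells, choroid plexus genes had 36 molecules and 3.25 times the level of the other brain cells, with 7 of the 12 genes at 0. In the brain cells without Deup1 and Ccno, 18 of the 34 molecules of this list were of Calml4, which is also on the ependymal list. Of the 18 tail cells with at least 3 astroglial markers, 5 held a rule gene (27.8%, exact 95% interval 9.69 to 53.5), against 15.7% of all other tail cells.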
